A study of Mus musculus with 6 samples.

Results

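The metallothionein and zinc transporter genes followed here are Mt1, Mt2, Mtf1, Slc30a1, Slc30a10, Slc39a1, Slc39a4, Slc39a5, Slc39a8 and Slc39a14, 10 of the 23282 genes in the deposited table, found by their gene symbols. RNA was sequenced from primary hepatocytes of C57BL/6N mice, obtained by collagenase perfusion of the liver and seeded in multiwell plates. The 3 control samples received no treatment and the 3 IL-1β samples received recombinant IL-1β protein for 24 h, at a dose that the sample labels do not give. The series title calls the hepatocytes metabolically stressed, and the labels name no treatment other than IL-1β in either group. The design text gives 2 samples per group while naming 3, and all 6 were used. Nothing states that the samples of a group came from separate animals, so the p-values below measure the spread between these samples, which may be technical. Libraries were made with QuantSeq, a kit that sequences mRNAs from their 3′ end, so that a transcript gives about 1 read whatever its length and levels were compared between genes without a correction for length. Total counts were 10538667, 11105408 and 9566434 in the control libraries, and 9538741, 10554243 and 11037083 with IL-1β. At these depths, 3 counts correspond to between 0.268 and 0.320 normalized counts (CPM, scaled by TMM to the size of each library), and this limit allows for counting error alone.

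Metallothioneins are small cysteine-rich proteins that hold zinc and copper in the cytosol, and their genes are known to respond in liver to zinc, glucocorticoids and inflammatory cytokines. Proteins of the SLC39 (ZIP) family carry zinc, and some of them manganese and iron, into the cytosol, whereas proteins of the SLC30 (ZnT) family carry metal out of the cytosol, across the plasma membrane or into organelles. The transcription factor MTF1 senses zinc and binds metal response elements in the promoters of Mt1, Mt2 and Slc30a1, and SLC39A14 is known as the zinc importer that the liver induces in the acute-phase response.

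The promoters of these 3 known MTF1 targets are shown because their genes all rose after IL-1β, as described below. They were thus picked by outcome, and the part of metal response elements in the rise was not tested. Each line gives the 250 bases before the RefSeq start on the GRCm38.p6 build, 5′ to 3′, and capitals mark every match to the metal response element core, TGCACNC or TGCGCNC, searched on both strands:
Mt1 (chr8:94178839-94179088, plus strand): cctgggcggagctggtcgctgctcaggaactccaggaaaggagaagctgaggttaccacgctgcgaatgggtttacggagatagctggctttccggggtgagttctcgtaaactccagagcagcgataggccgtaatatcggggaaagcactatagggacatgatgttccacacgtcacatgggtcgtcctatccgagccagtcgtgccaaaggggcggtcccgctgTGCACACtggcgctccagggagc
Mt2 (chr8:94172368-94172617, plus strand): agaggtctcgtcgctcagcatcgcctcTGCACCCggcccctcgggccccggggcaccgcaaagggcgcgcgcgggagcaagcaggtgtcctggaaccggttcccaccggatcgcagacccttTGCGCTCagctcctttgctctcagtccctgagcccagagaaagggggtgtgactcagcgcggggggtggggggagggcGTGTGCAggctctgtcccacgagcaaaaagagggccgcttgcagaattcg
Slc30a1 (chr1:191906531-191906780, plus strand): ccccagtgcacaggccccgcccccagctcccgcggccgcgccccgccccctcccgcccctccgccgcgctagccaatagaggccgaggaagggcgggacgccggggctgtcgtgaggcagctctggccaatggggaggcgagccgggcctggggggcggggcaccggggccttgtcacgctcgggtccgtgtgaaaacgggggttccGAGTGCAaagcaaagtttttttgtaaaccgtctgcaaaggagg

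With the first 50 bases after the start included, Mt2 held 4 matches to the core, with their leftmost bases at -223, -128, -50 and 5 from the start. Mt1 held 3, at -23, 3 and 21, and Slc30a1 held 2, at -43 and 31. Of all 32851 RefSeq promoters of this length, 25.7% held at least 1 match, 7.11% at least 2 and 0.517% at least 4. The promoter of Slc30a10 also held 3 matches, 2 of which overlap each other, and those of Mtf1 and Slc39a1 held none. Slc39a5 and Slc39a8 each have 2 RefSeq promoters, of which 1 held a single match and the other none. No promoter of these genes held the letters of a STAT site, TTCNNNGAA, which occur in 8.3% of all promoters, and the antioxidant response core TGACNNNGC, present in 12.4%, had 1 match each in Mt2, Slc30a1 and Slc39a1, and 2 and 1 matches in a promoter of Slc39a5 and of Slc39a8. Promoters were matched for 8 of the 10 genes, the other genes being Slc39a4 and Slc39a14. The window depends on the start chosen, since the GENCODE annotation places starts of Mt1 from 7 bases before to 152 bases after the RefSeq start. It places those of Mt2 at 46 and 242 bases after the RefSeq start. The starts of Slc30a1 lie at -14 and 475 bases from its RefSeq start. The window searched does not reach the starts of Mt1 at 122 and 152, of Mt2 at 242 and of Slc30a1 at 475. A match of letters is a description of the sequence only.

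To ask how zinc handling genes responded to IL-1β, the 6 libraries were compared with edgeR's quasi-likelihood test over 11657 genes, 9 of which were among the 10 genes followed here. Of these 9 genes, 6 were higher after IL-1β at an adjusted p below 0.05 and 0 were lower, also at an unadjusted p below 0.05 and with DESeq2. Among all genes tested, 13.4% passed in either direction, 6.97% higher and 6.44% lower. The higher genes were Slc39a14, Slc39a8, Mt2, Slc39a4, Mt1 and Slc30a1, while Slc39a5, Mtf1 and Slc39a1 did not pass and Slc30a10 had too few counts to be tested. The median log2 fold change was 0.39 over the 9 genes and -0.0018 over all genes tested. All IL-1β samples lay above all controls in 7 of the 9 genes and below them in 0. Among all 11657 genes tested, 1632 were separated upward in this way and 1650 downward. Higher genes made up 52.0% of the 1563 genes called with TMM normalization and 39.6% of the 1670 called with scaling by total counts alone, under which 5 of the 9 genes were higher and 0 lower. In RNA from whole cultures, fewer cells of a type and less RNA per cell cannot be told apart.

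**Figure D1:**
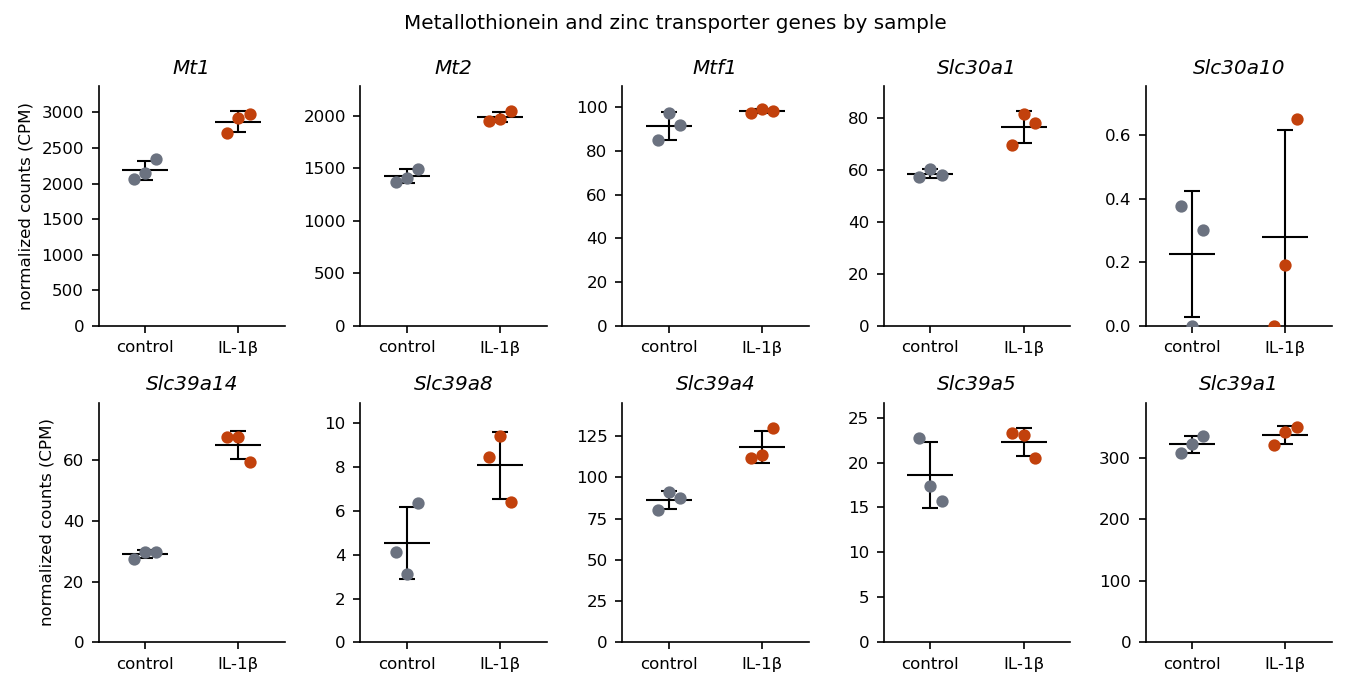
Normalized counts (CPM, linear axis from 0) of the 10 genes in each of the 3 control (grey) and 3 IL-1β (orange) samples, with the mean (long line) and SD (short caps). The IL-1β samples lie above all controls for Mt1, Mt2, Slc30a1, Slc39a14 and Slc39a4, by a narrow margin for Slc39a8 and Mtf1, and overlap them for Slc39a5, Slc39a1 and Slc30a10, whose lower SD bar in the IL-1β group is cut off at 0.

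Mt1 and Mt2 were the most abundant of the 10 genes, and both rose. Mt1, on the plus strand of chromosome 8 (chr8:94179089-94180327), was at 2069, 2151 and 2339 CPM in the control samples and 2709, 2924 and 2984 CPM after IL-1β. Every IL-1β sample was above every control, and the means were 2186 ± 138 and 2872 ± 145 CPM (SD, n = 3 each). On the log2 scale Mt1 rose by 0.39 (standard error, SE, 0.061, adjusted p = 3.3e-05), a 1.31-fold increase. By mean level Mt1 ranked 27 of the 23282 genes in control hepatocytes and 25 after IL-1β.

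Mt2 lies upstream of Mt1 on the same strand (chr8:94172618-94173567), with 5513 bases between the pair in the GENCODE annotation, where the facing ends of the genes differ by a few bases from those of the table. Its control samples were at 1369, 1407 and 1499 CPM and its IL-1β samples at 1949, 1971 and 2043 CPM. The groups did not overlap, and the gap between them was several times the spread within either group (1425 ± 66.6 against 1988 ± 49.4 CPM, SD, n = 3 each). The log2 fold change of Mt2 was 0.48 (SE 0.058, adjusted p = 8.7e-07), or 1.39-fold, and its rank by mean level moved from 57 to 36. A gene annotated on the opposite strand, Gm45774, overlaps the span of Mt2. The strand setting of the counting is not given in the sources used here. Whether reads of the pair were kept apart is therefore not known, nor is it shown here whether the overlap reaches their 3′ ends.

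Both genes contributed to the rise of metallothionein transcripts. Summed in each sample, Mt1 and Mt2 took 0.348%, 0.358% and 0.399% of all counts in the control libraries and 0.457%, 0.483% and 0.490% in the IL-1β libraries. On the CPM scale their sum went from 3611 ± 205 to 4860 ± 187 (SD, n = 3 each), a ratio of 1.35, and of the 1249 CPM added, 686 came from Mt1 and 563 from Mt2. Mt1 made up 60.2%, 60.5% and 60.9% of the pair's counts in the control samples and 58.2%, 59.7% and 59.4% after IL-1β. All 3 IL-1β shares were below all 3 control shares, by 1.45 percentage points on average (two-sided exact permutation p = 0.1, which 3 samples against 3 cannot go below). Among windows of 75 nt within 500 nt of the annotated 3′ ends, 0 of 702 from Mt1 and 0 of 518 from Mt2 occurred in an annotated transcript of another gene, a search of the sense strand that does not bear on the gene overlapping Mt2 on the opposite strand.

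The other metallothioneins were at or near 0. Mt3, known from the brain, had 0 counts in all control samples and 0, 1 and 1 after IL-1β, and Mt4, known from stratified epithelia, had 0 counts in all 6 libraries. Counts of 0 at these depths allow a level of up to 0.320 CPM in the shallowest library.

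Mtf1, which encodes the zinc-sensing activator of these promoters, was not called. Its samples were at 84.8, 97.4 and 91.9 CPM in the control group and 97.5, 99.0 and 98.3 CPM after IL-1β. The groups just failed to overlap, with the highest control and the lowest IL-1β sample nearly equal. Mtf1 (chr4:124802549-124849800, plus strand) had a log2 fold change of 0.11 (SE 0.079, adjusted p = 0.482).

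Slc30a1 encodes the zinc exporter of the plasma membrane, and it rose. Its levels were 57.4, 60.5 and 58.2 CPM in the control samples and 69.6, 81.8 and 78.2 CPM after IL-1β. No sample of either group fell within the range of the other, and the spread was wider after IL-1β (58.7 ± 1.62 against 76.5 ± 6.23 CPM, SD, n = 3 each). Slc30a1 (chr1:191906781-191913247, plus strand) rose by 0.38 in log2 units (SE 0.089, adjusted p = 0.0036), that is 1.30-fold. The antisense gene 1700034H15Rik overlaps the span of Slc30a1 on the other strand, and whether reads of the pair were kept apart is again not known. The same holds for 1110065P20Rik on the strand opposite Mtf1, Ankrd52 opposite Slc39a5, 4933401H06Rik opposite Slc39a8 and Gm2061 opposite Slc30a10. On the same strand, Gm43429 and Gm43428 lie within the span of Slc39a8 and n-R5s192 within that of Mtf1.

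Slc30a10, which exports manganese from the cell, was close to the limit of detection. It had 4, 0 and 3 counts in the control libraries and 0, 2 and 7 in the IL-1β libraries, and no fold change is given.

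Slc39a14, the importer of zinc, iron and manganese known from the acute-phase liver, had the largest increase among the genes followed. The control samples were at 27.5, 29.9 and 29.7 CPM and the IL-1β samples at 67.6, 67.7 and 59.5 CPM. All IL-1β samples were far above all controls, with the lowest of them well clear of the highest control. The mean rose from 29.0 ± 1.32 to 65.0 ± 4.71 CPM (SD, n = 3 each), 2.24-fold, with a log2 fold change of 1.16 (SE 0.10, adjusted p = 2.6e-09). Slc39a14 (chr14:70303467-70351424, minus strand) ranked 222 of 11657 genes by log2 fold change, whereas the other called genes ranked from 383 to 1206. Over 14 alternative settings, its log2 fold change stayed between 1.11 and 1.23.

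Slc39a8 encodes a carrier of zinc and manganese related to SLC39A14, and it was expressed at a low level. It was at 4.13, 3.13 and 6.34 CPM in the control samples, from 44, 35 and 63 counts, and at 8.44, 9.40 and 6.41 CPM after IL-1β, from 79, 98 and 69 counts. The highest control and the lowest IL-1β sample were almost equal, so the groups barely separated. The log2 fold change of Slc39a8 (chr3:135825279-135888572, plus strand) was 0.84 (SE 0.27, adjusted p = 0.0409), or 1.79-fold from 4.53 ± 1.64 to 8.08 ± 1.53 CPM (SD, n = 3 each). This call rested on single libraries. The log2 fold change was 0.78 without control sample 1, 0.63 without control sample 2, 0.81 without IL-1β sample 1 and 0.72 without IL-1β sample 2, with adjusted p of 0.0649, 0.180, 0.125 and 0.194. Without control sample 3 it was 1.15, and this fit and the one without IL-1β sample 3 were the only ones of the 6 that kept the adjusted p below 0.05.

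Slc39a4 encodes a plasma membrane zinc importer best known from the intestine, where its loss in humans causes zinc deficiency. Its levels were 80.5, 91.1 and 87.8 CPM in the control samples and 112, 114 and 130 CPM after IL-1β. Every IL-1β sample was above every control. Slc39a4 (chr15:76612383-76616852, minus strand) rose by 0.45 in log2 units (SE 0.082, adjusted p = 2.7e-04), or 1.37-fold from 86.5 ± 5.42 to 118 ± 9.79 CPM (SD, n = 3 each).

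Slc39a5 and Slc39a1 did not pass the test. Slc39a5, a basolateral zinc importer of gut, pancreas and liver (chr10:128395931-128401224, minus strand), was at 22.7, 17.3 and 15.7 CPM in the control samples and 23.3, 23.03 and 20.5 CPM after IL-1β. Its groups overlapped because of control sample 1, and its log2 fold change was 0.26 (SE 0.15, adjusted p = 0.306). It was 0.43 without control sample 1 (adjusted p = 0.0554) and 0.15 without control sample 3. Slc39a1, a zinc importer found in most cells (chr3:90248192-90253612, plus strand), was at 308, 323 and 336 CPM in the control samples and 321, 342 and 350 CPM after IL-1β. It was the most abundant SLC39 gene, its groups overlapped, and its log2 fold change was 0.07 (SE 0.065, adjusted p = 0.596).

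By level, the genes fell in the same order in both groups except for Mtf1 and Slc39a4. In control hepatocytes the order on the CPM scale was Mt1, Mt2, Slc39a1, Mtf1, Slc39a4, Slc30a1, Slc39a14, Slc39a5, Slc39a8 and Slc30a10. The samples of neighbours in this order did not overlap, except for Mtf1, between 84.8 and 97.4 CPM, and Slc39a4, between 80.5 and 91.1 CPM. After IL-1β, Slc39a4 ranged from 112 to 130 CPM and lay above Mtf1, which ranged from 97.5 to 99.0 CPM, and no neighbours overlapped. Slc39a14 came to lie just below Slc30a1, with a highest IL-1β sample of 67.7 CPM against a lowest of 69.6 CPM for Slc30a1.

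To place these genes within their families, all 14 SLC39 and 10 SLC30 genes of the table were examined. Of the 12 SLC39 genes tested, 4 were higher and 0 lower, and 5 were higher and 0 lower at an unadjusted p below 0.05. DESeq2 also called 4 higher and 0 lower. The gene outside those described above was Slc39a6, a plasma membrane zinc importer, which rose from 49.9 ± 2.12 to 68.0 ± 4.90 CPM (SD, n = 3 each), with a log2 fold change of 0.45 (SE 0.092, adjusted p = 0.0011). Slc39a7, which releases zinc from the endoplasmic reticulum, stood at 0.19 (adjusted p = 0.155) and passed without control sample 1, at 0.25 (adjusted p = 0.0333). The values were -0.44 for Slc39a3, -0.28 for Slc39a13, -0.22 for Slc39a11, -0.17 for Slc39a10 and -0.07 for Slc39a9, with adjusted p between 0.279 and 0.758. Slc39a2 had 8, 1 and 1 counts in the control libraries and 0, 6 and 5 after IL-1β, and Slc39a12 had a single count in IL-1β sample 2.

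Of the 6 SLC30 genes tested, 2 were higher, and 0 were lower, also at an unadjusted p below 0.05 and with DESeq2. Besides Slc30a1 this was Slc30a4, a carrier of zinc into endosomes and the most abundant gene of the family. Slc30a4 rose from 67.8 ± 2.77 to 86.8 ± 1.41 CPM (SD, n = 3 each), with a log2 fold change of 0.36 (SE 0.082, adjusted p = 0.0034). Slc30a5, which supplies zinc to the secretory pathway, stood at 0.20 (adjusted p = 0.566). Slc30a7, Slc30a9 and Slc30a6 had values of 0.03, 0.02 and -0.03, and the sign of each changed under at least 1 alternative. Slc30a3, known for loading zinc into synaptic vesicles, had 5, 12 and 5 counts in the control libraries and 0 in each IL-1β library. Its control mean was 2.31 times the mean IL-1β floor of 3 counts per library, without allowance for counting error in the controls. Slc30a3 had too few counts to be tested. Slc30a2 and Slc30a8, known from mammary gland and pancreatic beta cells, had 0 counts in all 6 libraries.

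**Figure D2:**
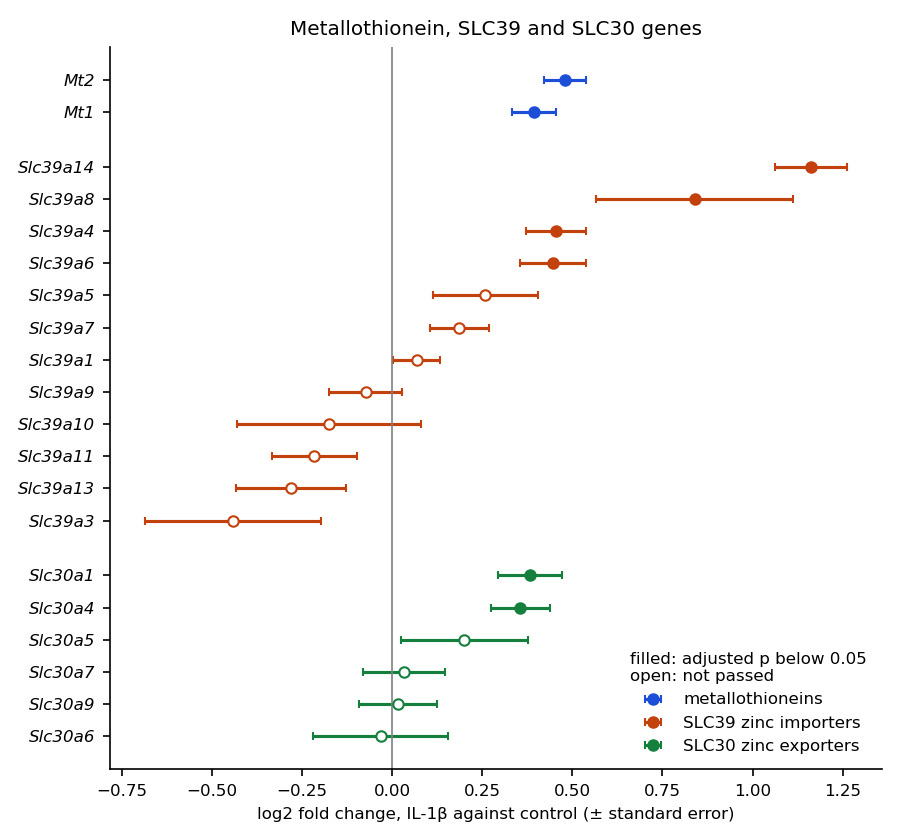
Log2 fold change of IL-1β against control (horizontal axis, bars are ± 1 standard error from edgeR) for each tested metallothionein (blue), SLC39 (orange) and SLC30 (green) gene. Filled points passed an adjusted p of 0.05, and all 8 filled points lie to the right of 0, with Slc39a14 farthest at 1.16.

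The median log2 fold change was 0.13 over the SLC39 genes tested and 0.12 over the SLC30 genes, beside -0.0018 over all genes tested. These medians include the genes followed here, to which all called genes except Slc39a6 and Slc30a4 belong. Of the SLC39 genes outside them, Slc39a6 and Slc39a7 lay above 0, and Slc39a3, Slc39a9, Slc39a10, Slc39a11 and Slc39a13 below 0. Summed over the SLC39 family, levels were 729, 737 and 742 CPM in the control samples and 822, 843 and 877 CPM after IL-1β. The summed SLC30 levels were 229.6, 237.5 and 226.4 CPM in the control samples and 264.5, 279.5 and 267.3 CPM after IL-1β. In both families the IL-1β sums, which include the genes followed here, lay above all control sums.

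The composition of the SLC39 transcripts shifted toward Slc39a14. Its share of the family's counts was 3.77%, 4.05% and 4.001% in the control libraries and 8.22%, 8.04% and 6.79% in the IL-1β libraries. The groups did not overlap, and the mean share went from 3.94% ± 0.149 to 7.68% ± 0.781 (SD, n = 3 each). The share of Slc39a4 went from 11.7% ± 0.662 to 13.97% ± 0.719 and that of Slc39a6 from 6.78% ± 0.349 to 8.04% ± 0.717. Slc39a1 kept the largest share, at 43.7% ± 1.52 in control and 39.9% ± 0.767 in IL-1β hepatocytes, and Slc39a7 held 15.1% ± 1.35 and 14.9% ± 0.813. Shares within a family are bound to sum to the whole, so a larger share of 1 gene lowers those of the others.

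**Figure D3:**
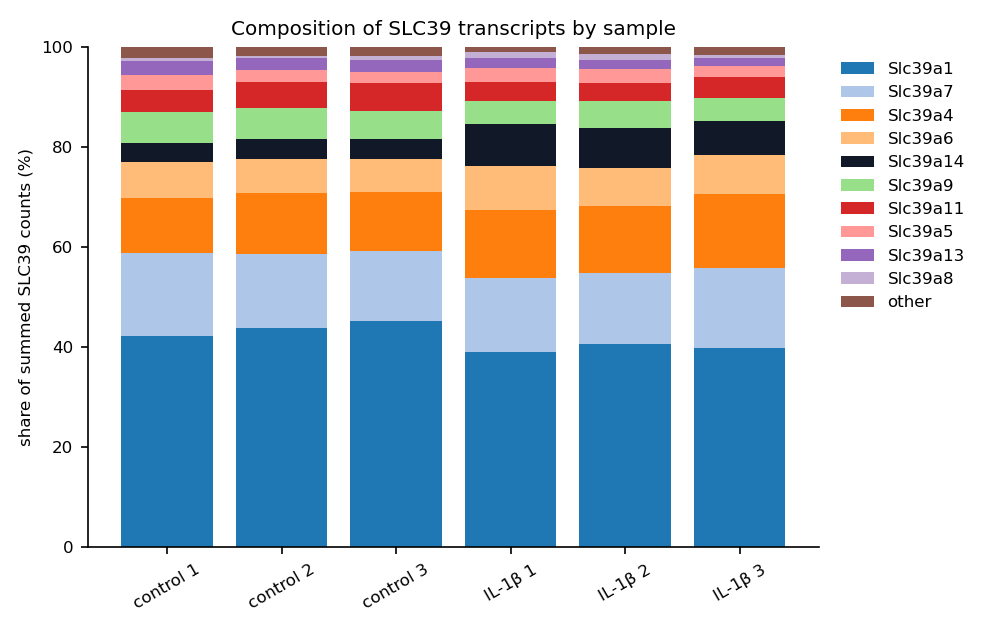
Share of the summed SLC39 counts (vertical axis, %) taken by each family member in the 6 samples, as stacked bars that sum to the whole, with genes of smaller share pooled as other. The black segment, Slc39a14, is between 3.77% and 4.05% in the controls and between 6.79% and 8.22% after IL-1β.

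Genes known to depend on MTF1 or to respond to zinc were then taken as a list of 9, which includes Mt1, Mt2 and Slc30a1. Of these, 6 were higher and 0 lower, 1 was lower at an unadjusted p below 0.05, and DESeq2 gave 6 and 0. The median log2 fold change was 0.36. Mt1, Mt2 and Slc30a1 are among the 6 higher genes, so the count and the median in part repeat the values given above. Outside these genes, Ndrg1, Gclc and Sepw1 were higher, and Slc39a10, Csrp1 and 2700094K13Rik lay below 0. Ndrg1, a stress-responsive gene, rose from 82.7 ± 3.09 to 137 ± 10.7 CPM (SD, n = 3 each), with a log2 fold change of 0.73 (SE 0.079, adjusted p = 1.7e-07). The other genes called, named after their values were seen to complete the count, were Gclc, the catalytic subunit of the first enzyme of glutathione synthesis, with a log2 fold change of 0.19 (adjusted p = 0.036), and Sepw1, a selenoprotein, with 0.36 (adjusted p = 0.0240). Slc39a10, Csrp1 and 2700094K13Rik, also given to complete the list after their values were seen, did not pass and had values of -0.17, -0.17 and -0.38. The calls of Gclc and Sepw1 depended on single libraries. Gclc passed only without control sample 1, at 0.21, and lost its call without control samples 2 and 3 or IL-1β samples 1, 2 and 3, at values from 0.14 to 0.22. Sepw1 lost its call without control sample 2, control sample 3 or IL-1β sample 3, at 0.31, 0.31 and 0.23. The list then held 4 higher genes without control sample 2, control sample 3 or IL-1β sample 3.

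Genes of neighbouring metal pathways changed individually. Of 8 genes tested for manganese and divalent metal transport, 3 were higher and 1 lower, with a median log2 fold change of 0.085. Besides Slc39a14 and Slc39a8, Slc11a2 rose, the importer of iron and other divalent metals, from 99.7 ± 8.49 to 186 ± 6.41 CPM (SD, n = 3 each; log2 fold change 0.90, SE 0.077, adjusted p = 2.0e-09). Slc40a1, the iron exporter ferroportin, fell from 95.9 ± 7.91 to 54.3 ± 3.07 CPM (SD, n = 3 each; log2 fold change -0.82, SE 0.089, adjusted p = 1.5e-07). Of 10 copper handling genes tested, 2 were higher and 0 lower, with 3 and 0 at an unadjusted p below 0.05, 2 and 0 with DESeq2, and a median of 0.098. These were Cp, which encodes the copper-carrying ferroxidase ceruloplasmin and went from 3814 ± 467 to 6285 ± 219 CPM (SD, n = 3 each; log2 fold change 0.72, adjusted p = 1.8e-08), and Slc31a2, a copper transporter, with a log2 fold change of 0.97 (adjusted p = 2.6e-07). Cox17 and Atox1, copper chaperones, had 0.28 (adjusted p = 0.0581) and 0.16 (adjusted p = 0.276). Cox17 passed without control sample 3, at 0.39 (adjusted p = 0.0071), and Atox1 without control sample 1, at 0.27 (adjusted p = 0.0067).

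Among 7 tested zinc enzymes of hepatocytes, 1 was higher and 2 were lower, with a median log2 fold change of -0.10. Adh1, the zinc-dependent alcohol dehydrogenase of liver, fell from 150 ± 11.9 to 42.4 ± 4.10 CPM (SD, n = 3 each), a log2 fold change of -1.83 (SE 0.090, adjusted p = 5.6e-14). Car3, a carbonic anhydrase, fell with -0.50 (adjusted p = 7.6e-04), and Sord, sorbitol dehydrogenase, rose with 0.35 (adjusted p = 0.0019). Alad, an enzyme of haem synthesis, had -0.19 (adjusted p = 0.444).

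Genes of pathways known to induce metallothioneins in liver, and targets of these pathways, were read in the same libraries. Of 9 tested genes of the STAT3 pathway or its targets, 5 were higher and 0 lower. These counts were the same at an unadjusted p below 0.05 and with DESeq2, and the median log2 fold change was 0.33. Socs3, the feedback inhibitor of the pathway, rose from 18.8 ± 2.18 to 54.7 ± 2.44 CPM (SD, n = 3 each), a log2 fold change of 1.54 (SE 0.11, adjusted p = 1.3e-10). Lbp, an acute-phase protein, rose with 1.03 (adjusted p = 8.2e-07), Stat3 itself with 0.37 (adjusted p = 4.7e-04) and Il6ra, the interleukin-6 receptor, with 0.45 (adjusted p = 0.0078). The value of Il6ra was 0.36 without IL-1β sample 3 and no longer passed (adjusted p = 0.0801). Il6 had 0 counts in the control libraries and 5, 0 and 6 after IL-1β. The remaining genes of the list were named after their values were seen, to complete it. Bcl3 was higher, at 0.33 (adjusted p = 0.0118). Jak2, Il6st, Jak1 and Fgg did not pass, at 0.27, 0.16, 0.07 and 0.06. The list held 4 higher genes without control sample 2, control sample 3, IL-1β sample 1 or IL-1β sample 3.

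Of 8 tested glucocorticoid-responsive genes, 0 were higher, also at an unadjusted p below 0.05 and with DESeq2, and 2 were lower, with a median log2 fold change of -0.067. Zbtb16, a zinc finger repressor, fell by 0.98 in log2 units (SE 0.22, adjusted p = 0.0021). Tat, tyrosine aminotransferase, fell by 1.71 (SE 0.44, adjusted p = 0.0088) at 3.22 CPM in the controls, and its log2 fold change was -1.43 without IL-1β sample 1, where it did not pass (adjusted p = 0.0662). Dusp1 and Nr3c1, the glucocorticoid receptor, had values of -0.28 (adjusted p = 0.174) and -0.15 (adjusted p = 0.420). The remaining genes of the list, given after their values were seen to complete it, were above 0 and uncalled. They were Tsc22d3 at 0.22, Sgk1 at 0.17, Per1 at 0.06 and Fkbp5 at 0.02.

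**Figure D4:**
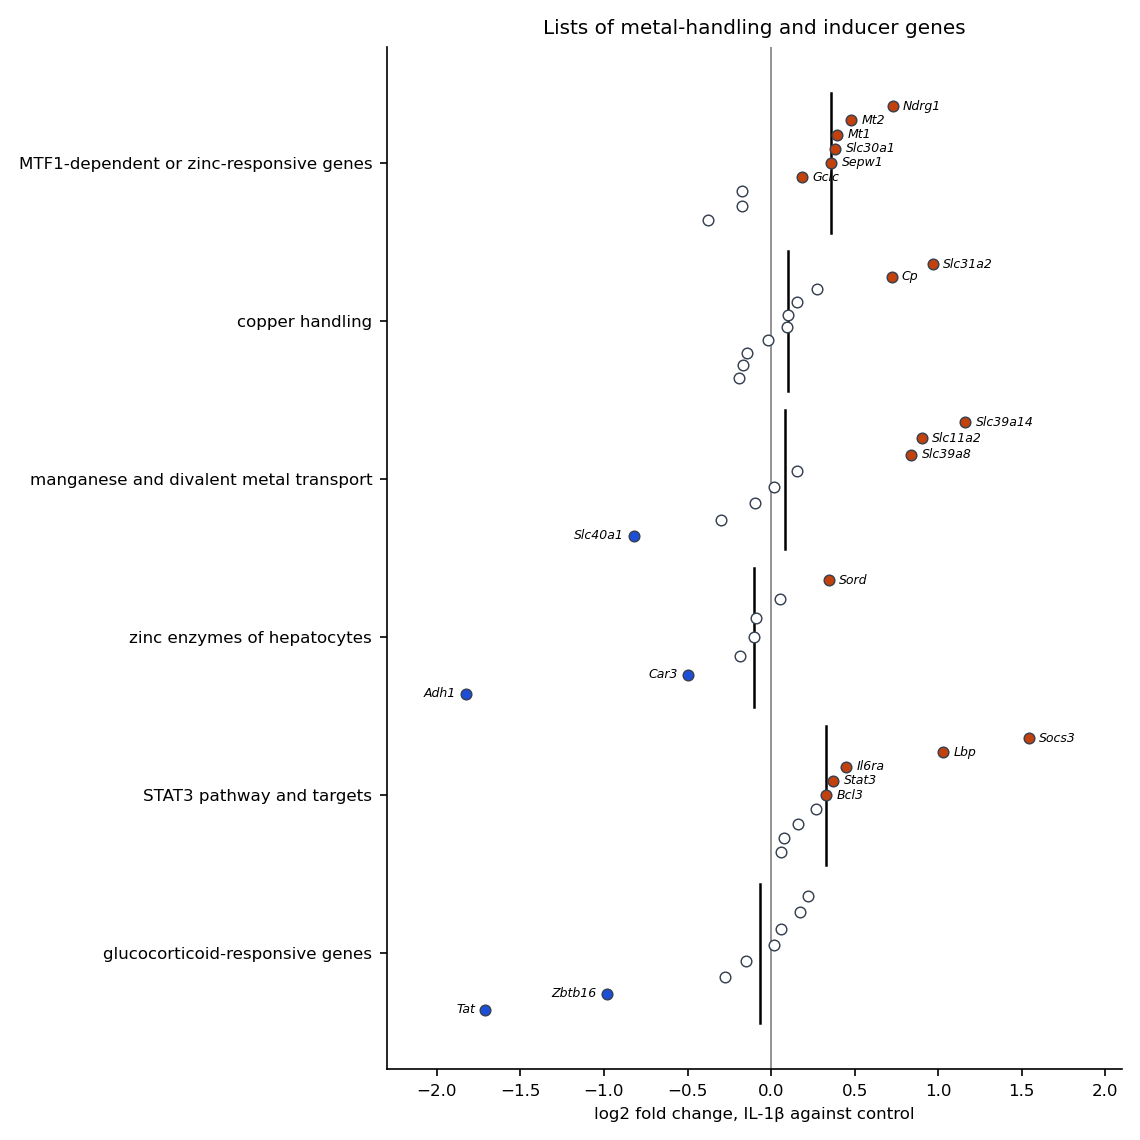
Log2 fold change of IL-1β against control (horizontal axis) of each tested gene in 6 lists, with a black line at the median of each list. Orange points were higher and blue points lower at an adjusted p of 0.05, open points did not pass, and vertical offsets within a list only separate the points. Medians lie between -0.10 and 0.36, with single genes such as Adh1 at -1.83 and Socs3 at 1.54 far outside them.

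The cultures were checked against markers of liver cell types. Hepatocyte markers were the most abundant, with 21880 ± 404 CPM in the control and 18580 ± 454 CPM in the IL-1β samples summed over 10 genes (SD, n = 3 each), of which 8 were lower and 0 higher, with 9 and 0 at an unadjusted p below 0.05 and 6 and 0 with DESeq2. Alb, serum albumin, was the most abundant, with a log2 fold change of -0.20 (adjusted p = 0.0113), followed by Apoa1 at -0.33, Ttr at -0.35 and Apoa2 at -0.31. The other lower genes were named after their values were seen, to complete the count. They were Hnf4a at -1.04 (adjusted p = 1.6e-09), Asgr1 at -0.55 (adjusted p = 1.7e-06), Cyp2e1 at -0.26 (adjusted p = 0.0098) and Tat, described above. The uncalled markers, also named after their values were seen, were Apoc3 at -0.27 (adjusted p = 0.136) and Cps1 at -0.36 (adjusted p = 0.652). Cps1 was at a low level, 2.65 CPM in the controls. The number of lower markers fell to 4 without IL-1β sample 1 and was 9 without control sample 3, and the calls of Alb, Apoa1 and Apoa2 were each lost when single samples were left out. Alb was at -0.19 without control sample 2 and -0.16 without IL-1β sample 1. Apoa1 was at -0.09 without control sample 1, and at -0.39, -0.26 and -0.34 without IL-1β samples 1, 2 and 3. Apoa2 was at -0.14 without control sample 1, and at -0.31 and -0.26 without IL-1β samples 1 and 2. The 6 called genes among those followed rose in libraries in which the summed hepatocyte markers were lower, and the part of these markers in the result was not tested.

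Markers of other liver cells had much lower summed levels than the hepatocyte markers. Macrophage or Kupffer cell markers summed to 263.5 ± 17.2 CPM in the control and 261.0 ± 16.6 CPM in the IL-1β samples (SD, n = 3 each), and 0 of 9 tested genes were called by edgeR or DESeq2, with 3 higher at an unadjusted p below 0.05. Their median log2 fold change was 0.44, with 6 of the 9 genes above 0. Cd68, which made up most of the sum at 192 ± 17.3 CPM in the control samples (SD, n = 3), had a log2 fold change of -0.06, whereas less abundant genes such as Marco and C1qa, named after their values were seen, had 0.67 (adjusted p = 0.141) and 0.75 (adjusted p = 0.211), and Timd4 had a single count in 1 library of each group. Ctss, whose sign changed when single samples were left out, had -0.02 and Cd5l had -0.21, both uncalled. Without control sample 1 the count was 2 higher, 1 of them Cd74, which went from 0.56 (adjusted p = 0.0658) to 0.71 (adjusted p = 0.0235). Sinusoidal endothelial markers summed to 83.4 ± 5.596 and 79.0 ± 2.65 CPM (SD, n = 3 each), with 1 of 8 higher and 3 lower and a median log2 fold change of -0.63. The lower genes, named after their values were seen to complete the count, were Clec4g at -2.87 (adjusted p = 1.9e-05), Kdr at -1.49 (adjusted p = 0.0051) and Ptprb at -0.95 (adjusted p = 0.0135). Ptprb lost its call without control sample 3, IL-1β sample 2 or IL-1β sample 3, at -0.82, -0.87 and -0.93. Eng, the most abundant of the list, had 0.02, a sign that changed with total counts alone, and Cdh5 and Pecam1, uncalled, had 0.32 and -0.31. Lyve1 was higher, at 0.45 (adjusted p = 0.0274), and lost its call without control sample 1 or 3 or IL-1β sample 2 or 3, at 0.36, 0.43, 0.40 and 0.46.

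Stellate cell markers summed to 40.6 ± 1.46 and 44.3 ± 2.42 CPM (SD, n = 3 each), with 0 of 3 tested genes called by edgeR or DESeq2 and 0 at an unadjusted p below 0.05. Sparc, the most abundant of them, had 0.02, a sign that changed with total counts alone, Dcn had 0.14 and Col3a1 had 0.52. Lrat had at most 2 counts in a library. Col1a1 had 0, 2 and 12 counts in the control libraries and 2, 0 and 36 after IL-1β. For Pdgfrb these were 1, 0 and 1, and 0, 3 and 13. Both were highest in IL-1β sample 3. Cholangiocyte markers summed to 323.5 ± 7.16 and 237.3 ± 1.84 CPM (SD, n = 3 each), carried by Sox9 and Spp1. Of the 2 genes tested, 1 was lower and 0 were higher, with 1 higher at an unadjusted p below 0.05 and 1 with DESeq2. Spp1, the secreted protein osteopontin, fell by 1.199 in log2 units (SE 0.074, adjusted p = 4.4e-12), and Sox9 stood at 0.21 (adjusted p = 0.0519), which passed without control sample 1, at 0.22 (adjusted p = 0.0473). Krt19, Krt7, Epcam and Cftr had between 0 and 6 counts. Of the neutrophil markers, S100a8 rose from 0 counts in every control library to 19, 36 and 51 after IL-1β. Csf3r had 0, 2 and 0 counts in the control libraries and 2, 1 and 1 after IL-1β, whereas S100a9, Retnlg and Mpo had 0 counts in all 6 libraries. For the macrophage, endothelial, stellate, cholangiocyte and neutrophil markers, their part in the result was not tested.

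To describe which genes followed the metallothioneins from sample to sample, log2(CPM + 1) was correlated with that of Mt1 over the 6 samples in 7968 tested genes with a mean of at least 10 CPM. The highest Pearson correlations were those of Nfkbie, an inhibitor of NF-κB (0.996), Gstm2, a glutathione transferase (0.996), Bmp4, a growth factor (0.994), Psmd10, a proteasome-associated protein (0.992), and Usp12, a deubiquitinase (0.992). The correlation of Mt2 with Mt1 was 0.985. These values combine the difference between the groups with the variation inside them, since the 6 points share their groups and their library scaling. The log2 fold changes were 0.99 for Nfkbie, 0.76 for Gstm2, 0.87 for Bmp4, 0.56 for Psmd10 and 0.28 for Usp12, the last of which was not called (adjusted p = 0.0981).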

How the data were processed

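RNA of 6 samples of primary mouse hepatocytes, 3 control and 3 IL-1β, was sequenced with the QuantSeq 3′ mRNA-Seq kit in single-end reads of 75 nt. Per the labels, reads were aligned with Bowtie2 on the mm10 (GRCm38) build and analysed with edgeR, and the counting tool, its strand setting and the handling of reads with several matches are not given in the sources used here. The authors deposited raw read counts per gene and log2 values of TMM-normalized CPM plus 1. The deposited log2 values differed from log2(CPM + 1) computed from the counts by at most 0.00748 in 11657 genes. The table also holds columns of the authors' own fold changes and p-values, which were not used. Groups were taken from the sample labels, and all 6 columns of counts were mapped to a sample.

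The counts were fitted by group alone with edgeR 4.0.16 (R 4.3.3) after filterByExpr and TMM scaling, with its quasi-likelihood test and Benjamini-Hochberg adjustment over all 11657 genes kept, with calls at an adjusted p below 0.05. Standard errors (SE) were derived from each gene's log2 fold change and F statistic. CPM were computed from TMM-scaled library sizes, and 3 counts were taken as the floor of detection. Exact permutation tests used Python 3.11.15 with scipy 1.17.1. The fit was also run on simulated data, whose outcome is not given here. Counts of replicate pairs differed by more than sampling noise (chi-square per degree of freedom from 4.14 to 9.94), so no library was counted as a duplicate. Promoters came from RefSeq tables of GRCm38.p6 and annotated genes from GENCODE.

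The genes followed and all gene lists were chosen with earlier results of these data known. The genes named are the 10 followed, all other metallothionein, SLC39 and SLC30 genes in the table, at most 4 genes of each other list with the smallest adjusted p, the 4 most abundant of each marker list, and the 5 genes most correlated with Mt1. Genes named outside this rule are marked as such, or have their counts alone given. Alternatives were DESeq2 1.42.0 (size factors or Wald test), total counts, an unmoderated model on log2(CPM + 1), every gene with a count, a minimum of 10 counts in each sample, the replicate number as a block, omission of Rn45s and of each sample in turn. Protein sequences were not analysed here.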

Additional observations from a re-analysis of the deposited data

How the results depend on the processing

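Over 14 alternative settings, Mt2 and Slc39a14 stayed higher at an adjusted p below 0.05, and Mt1, Slc39a4 and Slc30a1 did so in all but the unmoderated model on log2(CPM + 1). That model gave 546 changed genes in place of 1563 and 2 higher genes of the 9 in place of 6, with log2 fold changes of 0.39 for Mt1 (adjusted p = 0.0692), 0.45 for Slc39a4 (0.0837), 0.37 for Slc30a1 (0.0862) and 0.74 for Slc39a8 (0.264). It differs from edgeR in moderation, scale and error model at once, and the cause was not tested. It also gave fewer higher genes in the metallothionein (1 in place of 2), SLC39 (1 in place of 4), SLC30 (1 in place of 2), MTF1 (2 in place of 6), copper (1 in place of 2), manganese (2 in place of 3), zinc enzyme (0 in place of 1), STAT3 (1 in place of 5) and endothelial (0 in place of 1) lists, and fewer lower ones among hepatocyte markers (3 in place of 8), endothelial markers (1 in place of 3) and glucocorticoid-responsive genes (0 in place of 2). The log2 fold change of Slc39a8 was 0.78 with total counts alone (adjusted p = 0.0532) and ranged from 0.63 to 1.15 when a sample was left out. Counts of changed genes ranged from 1131 to 1596 when a sample was left out, where fewer samples were tested. With total counts alone 39.6% of 1670 changed genes were higher, against 52.0%, and the median of all genes moved to -0.0555. With the replicate block 1671 genes changed and 6 of the 9 genes were higher. Samples of the same number correlated by 0.075, 0.0275 and -0.00498 in their deviations from the group means, so they were not treated as pairs. Signs near 0 changed with total counts alone for Eng (-0.03876), Sparc (-0.03567), Slc30a7 (-0.01889) and Slc30a9 (-0.03751), and when a sample was left out for Ctss (-0.07739 to 0.02217), Eng (-0.04785 to 0.1192), Sparc (-0.01595 to 0.04452), Slc30a6 (-0.148 to 0.1553), Slc30a7 (-0.04399 to 0.2021) and Slc30a9 (-0.04186 to 0.07057). The cause was not tested. Of the values under the alternatives of the other 54 tested genes that the naming rule selects, which leaves out those named after their values were seen, 690 kept their direction and side of the threshold, 33 lost and 12 gained a call, and 18 changed sign. At this depth Slc39a8 rests on 35 to 98 counts per sample.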
